A study of Mus musculus with 10 samples.

Results

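T cell receptor β chains built with the variable segments TRBV15, TRBV16 and TRBV17 (older names V-beta 12, 11 and 9) accounted for 3880 of the 29481 clonotypes in 9 β chain libraries of mouse skin and lymph node. A clonotype was 1 combination of V segment, J segment and nucleotide sequence of the CDR3, the junction loop that contacts antigen. Members were all clonotypes whose V call was 1 of the 3 segments: 1061 for TRBV15, 2334 for TRBV16 and 485 for TRBV17. Of these, 384 came from the 8 skin libraries, which held 2788 clonotypes in all, and 3496 from the lymph node. The 3 segments were selected on their usage in these libraries, where their epidermal shares were high against bulk dermis, so those shares are described below without a test.

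The libraries were made from αβ T cells sorted from ear skin or peripheral lymph nodes. All but 1 came from Tcrd-/- mice (B6.129P2-Tcrdtm1Mom/J), which lack γδ T cells in every tissue. They comprised epidermal cells (A, B and C), bulk dermal cells (A and B), CD103+ dermal cells, CD103hi dermal cells and lymph node cells. The remaining library held dermal cells of wild-type (WT) C57BL/6-N/Crl mice, a strain that differs from the mutant in name as well as at Tcrd. Epidermal cells were sorted as CD45+ CD3hi TCRβhi, and dermal and lymph node cells as CD45+ CD3+ TCRβ+, with CD103, an integrin of epithelial T cells, added for the 2 CD103 sorts. Each library was a pool of 5 to 18 animals, whose ages are not in the labels, and nothing says that pools were separate experiments, so any p-value measures only the spread between these pools. The tables list β chains alone, so the sorted cell types could not be checked against marker genes.

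A β chain gene is assembled in the thymus by joining 1 TRBV segment to a TRBD and a TRBJ segment. TRBD1 can join either TRBJ cluster, while TRBD2 lies behind the TRBJ1 cluster and normally joins TRBJ2. The enzyme terminal transferase adds non-templated bases at the joints, and chains assembled before birth, when the enzyme is little expressed, carry few of them. TRBV15, TRBV16 and TRBV17 are neighbouring genes on mouse chromosome 6, each with a leader exon and an exon for the variable domain.

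The sequences below show what each segment brings to the junction. In GRCm38, Trbv15 spans chr6:41141188-41141658, Trbv16 chr6:41151740-41152230 and Trbv17 chr6:41163062-41163556, all on the plus strand. The last 17 bases of each second exon, from the codon of the first cysteine, form the germline start of the CDR3 (GENCODE M21). TRBV15 and TRBV16 were identical at 14 of these 17 bases, and TRBV17 matched either of them at 13. The TRBD2 germline follows, since its bases recur in the clones described below.
TRBV15 germline end: tgtgccagcagtttagc
TRBV16 germline end: tgtgcaagcagcttaga
TRBV17 germline end: tgtgctagcagtagaga
TRBD2: gggactgggggggc

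The largest clonotype of each segment in each epidermal library is shown next. These clones held between 25.4 and 77.7% of the reads of their segment in their library. They are followed by 2 further TRBV15 clones and 1 TRBV17 clone of the CD103hi sort that share a motif with them. Capitals mark inserted bases, meaning those outside the V, D and J stretches given by the deposited positions. Sequences run 5′ to 3′ over the CDR3.
TRBV15 epidermal A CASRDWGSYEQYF: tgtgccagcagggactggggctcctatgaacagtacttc
TRBV15 epidermal B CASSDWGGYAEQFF: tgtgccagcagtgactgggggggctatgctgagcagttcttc
TRBV15 epidermal C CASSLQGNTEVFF: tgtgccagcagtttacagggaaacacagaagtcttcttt
TRBV15 epidermal A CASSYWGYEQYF: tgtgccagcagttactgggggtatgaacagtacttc
TRBV15 epidermal C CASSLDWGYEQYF: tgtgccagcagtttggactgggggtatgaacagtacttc
TRBV16 epidermal A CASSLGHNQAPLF: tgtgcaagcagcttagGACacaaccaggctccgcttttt
TRBV16 epidermal B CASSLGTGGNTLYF: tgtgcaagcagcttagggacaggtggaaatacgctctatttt
TRBV16 epidermal C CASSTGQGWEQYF: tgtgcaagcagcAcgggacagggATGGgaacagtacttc
TRBV17 epidermal A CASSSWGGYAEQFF: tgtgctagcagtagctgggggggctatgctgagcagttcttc
TRBV17 epidermal B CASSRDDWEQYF: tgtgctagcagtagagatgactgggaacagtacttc
TRBV17 epidermal C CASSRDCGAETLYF: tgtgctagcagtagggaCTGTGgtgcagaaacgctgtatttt
TRBV17 CD103hi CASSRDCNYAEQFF: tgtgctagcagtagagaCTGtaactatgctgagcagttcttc

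Library depth ranged from 31823 to 189162 reads, the WT library being the deepest. The number of clonotypes ranged from 72 in epidermal C and 77 in dermal B to 702 in WT dermis, against 26693 in the lymph node. By the names the labels give them, the libraries form 3 sets, which hold epidermal A with dermal A and the lymph node, epidermal B with the CD103 sorts, and epidermal C with dermal B and WT dermis. Members shared between skin libraries lay mostly within a set and at a few reads in 1 of the libraries, as described at the end.

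Of the 3 segments, TRBV15 had the widest range of read shares over the epidermal pools. It took 10.4% of reads in epidermal A, 2.02% in B and 28.1% in C, a mean of 13.5% ± 13.3 (SD, n = 3). In bulk dermis it took 0.0529% of reads in A, 28 reads in all, and 0 of 41602 reads in B, which allows a share of up to 0.00721%. The mean of epidermal A and B alone was 6.19%, so the mean over all 3 rests largely on epidermal C. The other libraries lay between the bulk dermal and the higher epidermal values, with 2.78% in the CD103+ sort, 0.415% in the CD103hi sort, 3.64% in the lymph node and 4.75% in WT dermis. In bulk sorts, a larger number of cells with a segment and more RNA per cell cannot be told apart in a read share.

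Counted by clonotypes, TRBV15 was less uneven. It made up 7.86% of the clonotypes in epidermal A (25 of 318; exact 95% interval 5.15 to 11.4), 3.22% in B (14 of 435; 1.77 to 5.34) and 9.72% in C (7 of 72; 3.999 to 19.0). Bulk dermis held 6 TRBV15 clonotypes in A (2.55%) and 0 in B. The ratio of read share to clonotype share was 1.32 in epidermal A, 0.626 in B and 2.89 in C. The read share thus exceeded the clonotype share in A and C and fell short of it in B. In the lymph node, where 484 of 953 TRBV15 clonotypes had 1 read, the ratio was 1.02.

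TRBV16 had similar clonotype shares in epidermal A and B. Its reads came to 7.25, 5.24 and 13.7% of epidermal A, B and C, a mean of 8.74% ± 4.44 (SD, n = 3), and 7.23, 7.13 and 11.1% of clonotypes. Bulk dermal A and B gave 0.457 and 1.75% of reads and 4.26 and 5.19% of clonotypes. The CD103+ sort was close to epidermal C, with 14.1% of reads from 51 clonotypes, and there TRBV16 ranked first among the TRBV segments. The CD103hi sort had 1.11%, the lymph node 7.84% and WT dermis 6.29%. Both CD103 sorts come from the same tissue and library set, yet they differed in TRBV16 by more than the exact 95% intervals of 13.8 to 14.5% and 0.994 to 1.23%, which cover counting error only.

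TRBV17 was the rarest of the 3 in the lymph node, at 1.47% of reads and 1.48% of clonotypes. Its reads came to 1.97, 5.22 and 4.86% of epidermal A, B and C, a mean of 4.02% ± 1.78 (SD, n = 3). Its clonotype shares there were 1.26, 4.60 and 4.17%, from 4, 20 and 3 clonotypes. Bulk dermal A held 8 TRBV17 reads (0.0151%) in 3 clonotypes, and dermal B held 93 reads (0.224%) in 1 clonotype. The CD103hi sort had the highest share by both counts, 7.13% of reads and 7.66% of clonotypes (35 of 457; exact 95% interval 5.39 to 10.5). The CD103+ sort had 1.96% of reads and WT dermis 0.592%. The order of the 2 CD103 sorts was thus opposite for TRBV16 and TRBV17.

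In read share, all 3 epidermal libraries lay above both bulk dermal libraries for each of the 3 segments, as they did for 19.2% of the 26 TRBV segments (5 in all, the 3 members included). In clonotype share the same held for TRBV15 and TRBV16, against 7.69% of the 26 segments, which are these same 2. TRBV17 overlapped, because epidermal A, at 1.26% of clonotypes, lay below dermal A at 1.28% and dermal B at 1.30%. These counts restate the choice of the segments.

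**Figure D1:**
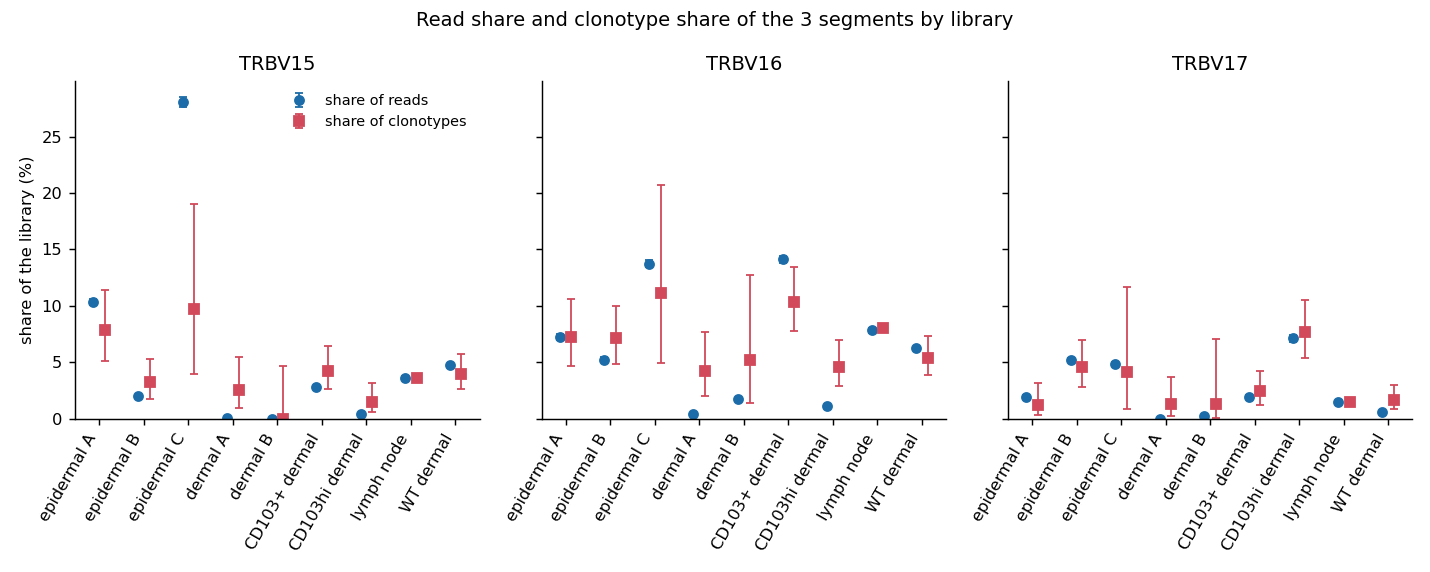
Share of each library's reads (blue circles) and of its clonotypes (red squares) held by TRBV15, TRBV16 and TRBV17, in percent, for the 9 libraries. Bars are exact 95% binomial intervals. TRBV15 in epidermal C stands out at 28.1% of reads against 9.72% of clonotypes, while in bulk dermis the read shares lie below the clonotype shares, except for TRBV15 in dermal B, where both are 0.

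The epidermal read shares of the 3 segments rested on few clones. In epidermal A, TRBV15 had 4781 reads, of which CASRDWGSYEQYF held 2050, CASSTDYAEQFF 1370 and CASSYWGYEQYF 814. In epidermal B, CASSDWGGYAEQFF held 432 of 1035 TRBV15 reads. In epidermal C, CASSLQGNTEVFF held 9570 of 12320 TRBV15 reads, which is 21.8% of the library. The 3 largest clonotypes carried 88.6, 89.0 and 98.7% of the TRBV15 reads in A, B and C. With them left out, TRBV15 took 1.31, 0.226 and 0.501% of the remaining reads, so most TRBV15 reads of each pool came from 3 clones.

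Leaving out the largest clonotype alone moved the shares less evenly. TRBV15 then took 6.20% of the remaining reads in A, 1.18% in B and 8.01% in C, and the epidermal mean fell from 13.5 to 5.13%. TRBV16 went to 5.25, 3.96 and 6.60%, with a mean of 5.27%. TRBV17 went to 0.642, 3.12 and 1.60%, with a mean of 1.79%. Each of these values still lay above the read shares of the same segment in both bulk dermal libraries. With the 3 largest left out of the epidermal libraries alone, this still held for TRBV15 but not throughout for TRBV16 and TRBV17. TRBV16 then took 2.10 and 1.88% in epidermal A and B but 0.232% in C, below the full share of 0.457% in dermal A and 1.75% in dermal B. TRBV17 took 0.00221% in epidermal A, 1 read, below 0.0151% in dermal A, and 1.26% in B, and none was left in C. With the 3 largest left out of bulk dermis as well, TRBV16 took 0.0569% in dermal A and 0.00245% in dermal B. Both lay below its trimmed value in each epidermal library, but dermal A and B held only 10 and 4 TRBV16 clonotypes to begin with. For TRBV17 they held 3 and 1, so this trimming could leave none in bulk dermis. The segments were also chosen on these shares, so the trimmed values do not test the contrast.

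TRBV16 was spread over more clones than TRBV15 in epidermal A and B. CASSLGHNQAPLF held 972 of 3342 TRBV16 reads in A. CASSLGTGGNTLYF and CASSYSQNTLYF held 685 and 682 of 2693 reads in B, nearly equal parts. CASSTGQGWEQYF held 3352 of 6027 reads in C. The 3 largest carried 72.6, 65.5 and 98.5% of the TRBV16 reads. The number of clonotypes needed to reach 90% of the reads was 5, 8 and 3, against 4, 4 and 2 for TRBV15.

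TRBV17 in epidermal A and C rested on 2 clones each for 90% of its reads. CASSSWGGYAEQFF held 616 of 908 reads in A, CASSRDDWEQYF 1112 of 2680 in B, and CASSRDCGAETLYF 1452 of 2133 in C. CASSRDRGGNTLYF added 586 reads in C and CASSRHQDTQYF 554 in B. Epidermal B, with 20 TRBV17 clonotypes, was the broadest, and 5 of them reached 90% of its reads.

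Bulk dermis was also clonal, at far lower reads. In dermal B, 725 of 729 TRBV16 reads and all 93 TRBV17 reads fell in 1 clonotype each. In dermal A, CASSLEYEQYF held 23 of the 28 TRBV15 reads, and the other 5 clonotypes had 1 read each. Its TRBV16 reads were led by a clone of 101 among 242. Of its 8 TRBV17 reads, 4 belonged to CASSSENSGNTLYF, and 3 of the others to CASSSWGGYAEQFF, the leading TRBV17 clone of epidermal A.

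The CD103 sorts differed in which segment was broad. In the CD103+ sort, TRBV16 had 51 clonotypes and 5 clones with at least 1% of the library, led by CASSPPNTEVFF with 1675 reads and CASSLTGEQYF with 593. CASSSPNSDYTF, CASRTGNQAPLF and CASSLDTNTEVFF followed with 583, 486 and 477 reads. In the CD103hi sort, TRBV17 had 35 clonotypes, led by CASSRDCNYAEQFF with 469 of 2268 reads and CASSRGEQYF with 449. TRBV15 was led there by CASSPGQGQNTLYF with 118 of 132 reads, and in the CD103+ sort by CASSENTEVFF with 345 of 1189. TRBV17 in the CD103+ sort rested on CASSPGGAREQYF with 514 of 838 reads.

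WT dermis was less concentrated for TRBV15. Its largest TRBV15 clone, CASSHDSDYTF, held 1712 of 8979 reads (19.1%), and 13 clonotypes were needed for 90%. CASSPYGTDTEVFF held 3440 of 11905 TRBV16 reads, and 17 clonotypes made up 90%. In the lymph node the largest clonotype held 0.523% of TRBV15 reads, 0.291% of TRBV16 reads and 1.43% of TRBV17 reads.

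Concentration of this kind was not a property of the 3 segments alone. Over the other TRBV segments with at least 5 clonotypes, the largest clone held a median of 46.6% of its segment in epidermal A (16 segments), 35.8% in B (15 segments) and 69.6% in C (3 segments). TRBV15 lay at 42.9, 41.7 and 77.7% and TRBV16 at 29.1, 25.4 and 55.6%. TRBV17, which of the epidermal libraries had 5 clonotypes or more in B only, lay at 41.5% there, above the median. By this measure TRBV16 ranked 16th of 18 segments in epidermal A, 12th of 18 in B and 4th of 5 in C, toward the even end, while TRBV15 ranked 10th, 7th and 2nd and TRBV17 8th in B.

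**Figure D2:**
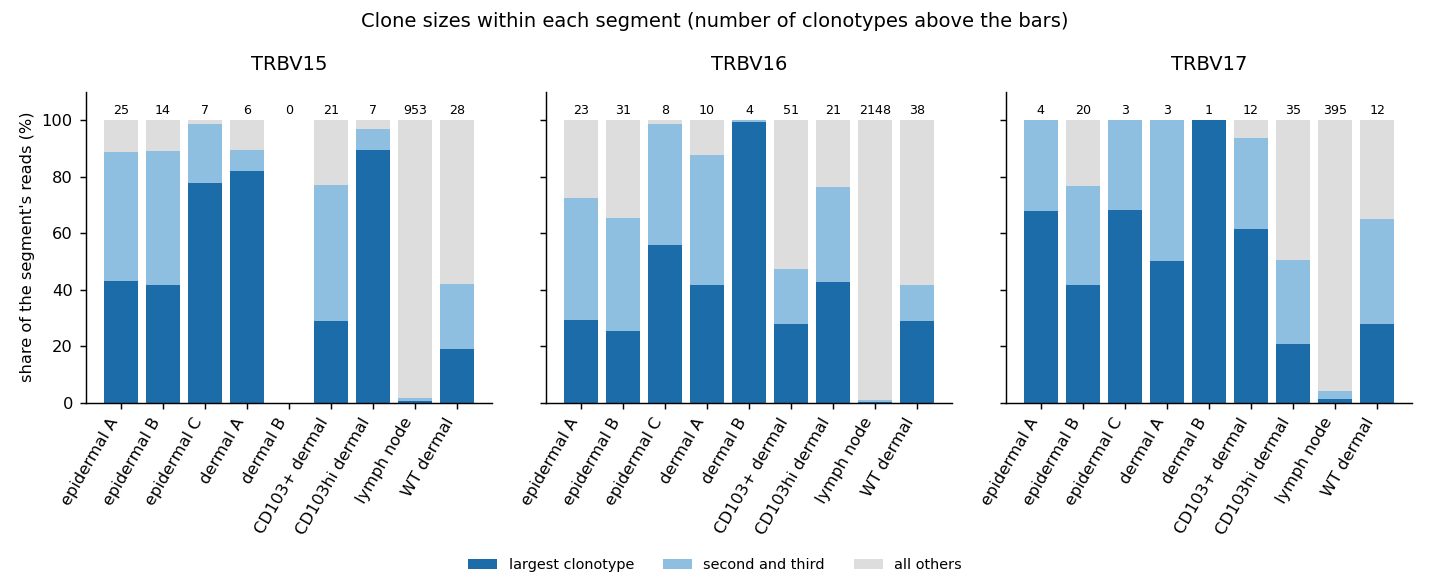
Percent of each segment's reads in its largest clonotype (dark blue), in the next 2 (light blue) and in all others (grey), by library, with the number of clonotypes above each bar. The blue parts fill 65.5% or more of every epidermal bar and almost nothing of the lymph node bars. TRBV15 has no bar in dermal B, where it had no read.

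Among the 19 epidermal clonotypes of the 3 segments with at least 1% of their library, 11 had no inserted base by the deposited positions, 13 when junctions were read from the germline sequences. They were 11 to 15 residues long, and 6 used a TRBJ1 segment. Of the 6 TRBV15 clones, 4 had no inserted base in the deposited positions and 6 in the germline reading. The largest, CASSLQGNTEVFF, lacks only the last 2 bases of the TRBV15 end, reads on in TRBD1 and ends in TRBJ1-1. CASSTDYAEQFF and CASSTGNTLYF were deposited with 4 and 3 inserted bases and no D call, and the germline reading left none. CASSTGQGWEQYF, the leading TRBV16 clone of epidermal C, kept 5 deposited inserted bases and 6 by the germline reading.

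Over all member clonotypes, the share without inserted bases was 42.3% in epidermal A (22 of 52; exact 95% interval 28.7 to 56.8), 35.4% in B (23 of 65; 23.9 to 48.2) and 50.0% in C (9 of 18; 26.0 to 74.0). Bulk dermal A and B gave 36.8% (7 of 19) and 40.0% (2 of 5). The epidermal mean of 42.6% ± 7.31 (SD, n = 3) and the dermal mean of 38.4% ± 2.23 (n = 2) overlapped in their libraries, and an exact two-sided permutation test gave p = 0.6 (adjusted p = 0.6 over 3 tests). The smallest p that 3 against 2 libraries allow is 0.2. Junctions read from the germline sequences, in the clonotypes that allow it, gave a wider gap. The shares were then 38.9, 31.8 and 46.7% in epidermal A, B and C against 17.6 and 20.0% in dermal A and B. The groups did not overlap in that reading, and the difference of 20.3 percentage points had p = 0.2 in the exact permutation test (adjusted p = 0.3). By the deposited positions both CD103 sorts were in the epidermal range, at 39.3 and 44.4%. The lymph node gave 17.0% (595 of 3496; 15.8 to 18.3) and WT dermis 17.9% (14 of 78; 10.2 to 28.3), each a single library.

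The number of inserted bases gave no clear order either. Member clonotypes had a mean of 3.04, 1.80 and 1.44 inserted bases in epidermal A, B and C, against 4.26 and 1.80 in dermal A and B. The difference, −0.94 bases, had p = 0.6 in the exact permutation test (adjusted p = 0.6). Without dermal A it changed sign, to 0.29. In dermal A the 6 TRBV15 clonotypes, 5 of them of 1 read, had 10.8 inserted bases on average.

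CDR3 loops of the members were shorter in every epidermal library than in either bulk dermal library. Mean lengths were 13.4, 13.0 and 13.0 residues in epidermal A, B and C, against 13.7 and 13.6 in dermal A and B. The difference of −0.54 residues had p = 0.2, the smallest this exact permutation test can give (adjusted p = 0.6). It was not particular to the members. Other TRBV segments averaged 13.12, 13.07 and 13.15 residues in epidermal A, B and C, against 14.07 and 13.88 in dermal A and B. Weighted by reads the member difference was −2.05 residues, with the same p in the exact permutation test, since means were then 13.2, 12.7 and 12.9 residues against 15.0 in both bulk dermal libraries. Those dermal means rest on few clones. Dermal A had 278 member reads, 36.3% of them in 1 clone of 17 residues. Dermal B had 822, of which 88.2% were in 1 clone of 15 residues. The shortest mean of all was 12.4 in the CD103+ sort, where other segments averaged 13.7. With both CD103 sorts counted as dermal, the difference shrank to −0.04 residues. The lymph node mean was 13.8 and the WT dermal mean 13.2.

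Set against all other TRBV segments of the same library, the 3 segments had no junction difference that passed the threshold of 0.05 after adjustment over 9 tests. CDR3 length differed by −0.32 ± 0.53 residues for TRBV15 (SD over 8 libraries, shorter in 6), −0.41 ± 0.60 for TRBV16 (shorter in 6 of 8) and −0.19 ± 0.59 for TRBV17 (shorter in 2 of 5). Exact sign-flip permutation tests over libraries gave p = 0.141, 0.0859 and 0.625, with adjusted p = 0.253, 0.253 and 0.804. Inserted bases differed by 0.53 ± 2.67 for TRBV15, −0.47 ± 0.92 for TRBV16 and 0.02 ± 0.36 for TRBV17, with adjusted p = 0.938, 0.253 and 0.938 in the same exact tests. By the deposited positions, the share of members without inserted bases was higher than that of other segments in bulk dermal A and B. It was 36.8 against 16.7% and 40.0 against 16.7%, from 19 and 5 member clonotypes. In epidermal A and B it was lower, at 42.3 against 47.0% and 35.4 against 48.4%, and in epidermal C it was higher, at 50.0 against 33.3%. It was also higher in the CD103+ sort, at 39.3 against 29.4%, while the CD103hi sort gave 44.4 against 45.2%. The epidermal libraries thus had no common direction. The germline reading gave lower shares for the bulk dermal members, as described above, so the bulk dermal difference holds for the deposited positions only.

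**Figure D3:**
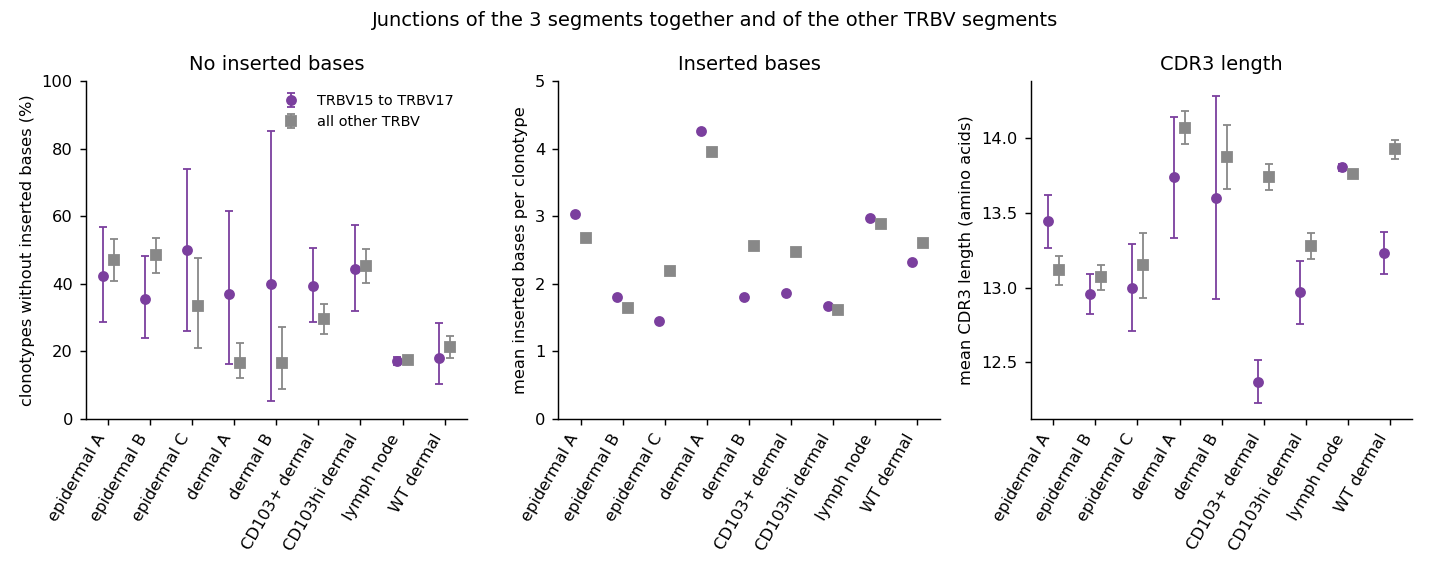
Share of clonotypes without inserted bases (left, percent, exact 95% intervals), mean inserted bases per clonotype (middle) and mean CDR3 length in residues (right, bars are the standard error over clonotypes) for the 3 segments together (purple circles) and all other TRBV segments (grey squares). The length axis does not start at 0. Epidermal members without insertion lie between 35.4 and 50.0%, the lymph node at 17.0%, and the CD103+ members have the shortest mean at 12.4 residues.

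TRBV17 chains used few TRBJ1 segments. Of the TRBV17 clonotypes, 0 of 20 in epidermal B, 1 of 12 in the CD103+ sort, 2 of 35 in the CD103hi sort and 0 of 12 in WT dermis carried TRBJ1. In the lymph node it was 73 of 395, or 18.5% (exact 95% interval 14.8 to 22.7), against 30.5% of 23197 other clonotypes (30.0 to 31.1). The TRBJ1 share was lower than that of other TRBV segments in 5 of 5 libraries. The difference was −12.1 percentage points in the lymph node and ranged from −28.4 to −22.2 in the 4 skin libraries. Its mean was −22.3 ± 6.24 percentage points (SD, n = 5), with p = 0.0625 in the exact sign-flip permutation test, the smallest 5 libraries allow, and adjusted p = 0.253. Epidermal A, epidermal C and both bulk dermal libraries had under 5 TRBV17 clonotypes and did not enter, and 2 of their 11 clonotypes used TRBJ1.

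TRBV15 had no common direction in TRBJ cluster. In epidermal B, 0 of its 14 clonotypes used TRBJ1, and in epidermal A 4 of 25 did, with 1.40% of the TRBV15 reads. In epidermal C it was 4 of 7, with 85.0% of the reads, since the leading clone uses TRBJ1-1. The CD103+ sort had 10 of 21. The difference from other segments ranged from −22.2 to 33.1 percentage points over 8 libraries, and the exact sign-flip permutation test gave p = 0.484 (adjusted p = 0.727).

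TRBV16 used TRBJ1 more often than other segments in 6 of 8 libraries. Its share was 17.4, 29.0 and 37.5% in epidermal A, B and C, 30.0% in dermal A, 43.1% in the CD103+ sort, 38.1% in the CD103hi sort, 30.0% in the lymph node and 44.7% in WT dermis. The mean difference was 6.26 ± 8.08 percentage points, with p = 0.0781 in the exact sign-flip permutation test and adjusted p = 0.253. Epidermal A and the lymph node lay on the other side, at −8.55 and −0.52 percentage points.

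**Figure D4:**
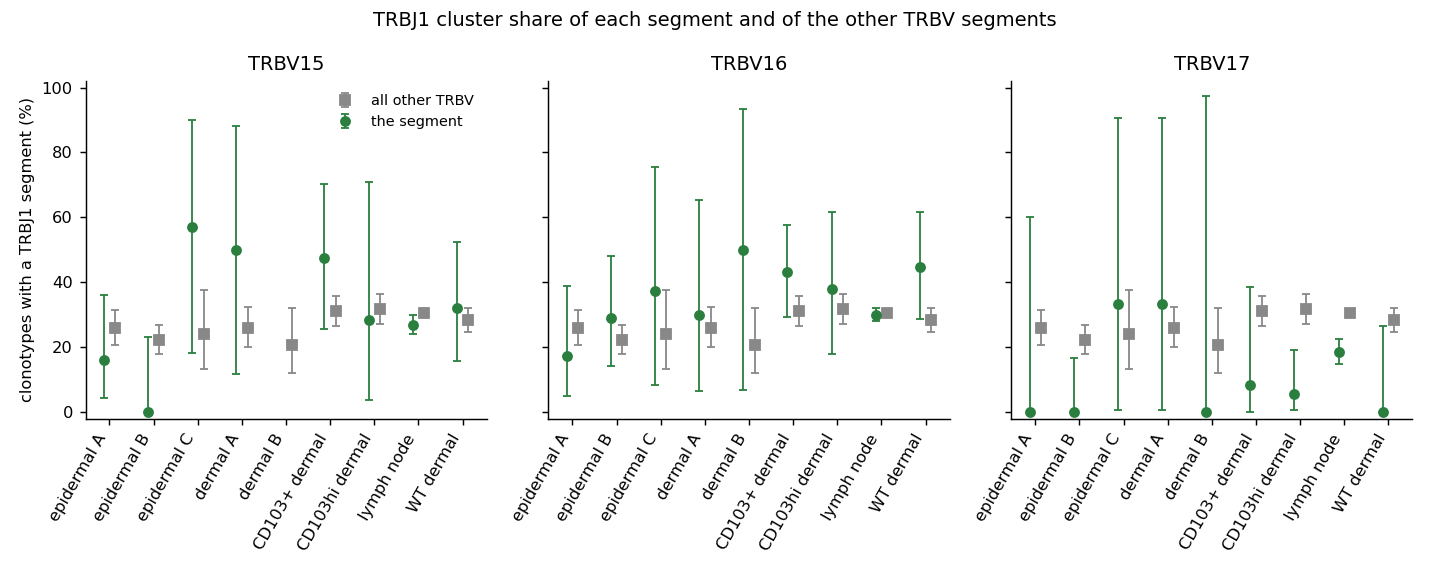
Percent of clonotypes with a TRBJ1 segment for TRBV15, TRBV16 and TRBV17 (green circles) and for all TRBV segments other than these 3 (grey squares) in each library, with exact 95% binomial intervals. TRBV17 lies below the grey point in the 5 libraries with at least 5 of its clonotypes, while TRBV15 and TRBV16 lie on both sides.

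For TRBV15 and TRBV17, the J segment with the most epidermal reads was that of the largest clone in each library. TRBV15 reads were 69.1% TRBJ2-7 in epidermal A, 73.7% TRBJ2-1 in B and 77.7% TRBJ1-1 in C. TRBV16 reads were 44.2% TRBJ2-1 in A, 25.5% TRBJ2-4 and 25.4% TRBJ1-3 in B, and 79.4% TRBJ2-7 in C. The largest TRBV16 clones of A and B used other J segments than the most read, TRBJ1-5 in A and TRBJ1-3 in B. TRBV17 reads were 68.0% TRBJ2-1 in A, 45.7% TRBJ2-7 in B and 68.1% TRBJ2-3 in C. No 2 epidermal pools shared the leading J of a segment. By clonotypes the pairing was wider, for example 8 J segments in TRBV15 of epidermal A and 9 in TRBV16 of epidermal B, against 11 and 12 in the lymph node. TRBJ2-5 held 10 of the 20 TRBV17 clonotypes of epidermal B, and TRBJ2-1 held 13 of 35 in the CD103hi sort.

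A tryptophan-glycine pair, visible as the TRBD2 bases ctgggg in several of the sequences printed above, occurred in many epidermal TRBV15 clonotypes and in other segments too. The pair was counted by amino acids alone, so its origin in TRBD2 was not checked for each clonotype. It was noted after the values had been seen and was not tested. The pair occurred in 7 of 25 TRBV15 clonotypes in epidermal A, 12 of 14 in B and 2 of 7 in C, with 66.1, 83.3 and 15.0% of the TRBV15 reads. In the lymph node 78 of 953 (8.18%) had it, in dermal A 1 of 6, in WT dermis 1 of 28, in the CD103hi sort 1 of 7, and in the CD103+ sort 0 of 21. With only clones of at least 10 reads and no 1-base neighbours counted, it was in 4 of 9, 4 of 5 and 1 of 3 TRBV15 clones of epidermal A, B and C. Other TRBV segments had it in 21.4, 19.7 and 6.67% of clones there under that filter. Over all clonotypes, they had it in 16.2, 19.7 and 5.56% in the epidermal libraries, with 26.8, 16.4 and 2.90% of their reads. In the lymph node it was 7.88% of their clonotypes. TRBV16 stood at 26.1, 16.1 and 12.5% in the epidermal libraries. It was not confined to them, with 3 of 10 TRBV16 clonotypes in dermal A and 0 of 4 in dermal B. The CD103hi sort gave 19.0%, the CD103+ sort 3.92% and WT dermis 15.8% for TRBV16. TRBV17 had the pair in 2 of 4 clonotypes in epidermal A, with 68.0% of its reads, 3 of 20 in B and 0 of 3 in C. Outside the epidermis, TRBV17 had it in 9 of 35 clonotypes (25.7%) of the CD103hi sort, where other TRBV segments stood at 21.6%, and in 5 of 12 in WT dermis. The CD103+ sort had it in 1 of 12 TRBV17 clonotypes, dermal A in 1 of 3 and dermal B in 0 of 1.

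TRBV17 loops often opened with CASSR, whose arginine codon aga lies in the germline end of the segment. This was so for 201 of 395 lymph node clonotypes (50.9%), 12 of 20 in epidermal B, 22 of 35 in the CD103hi sort and 4 of 12 in WT dermis. The CD103+ sort had 7 of 12, epidermal A 2 of 4, epidermal C 2 of 3, dermal A 1 of 3 and dermal B 1 of 1. A cysteine inside the loop occurred in 1 of 20 TRBV17 clonotypes in epidermal B, 1 of 3 in C, 5 of 35 in the CD103hi sort, 1 of 12 in the CD103+ sort and 2 of 395 in the lymph node, and in 0 of 4 in epidermal A and 0 of 12 in WT dermis. Other TRBV segments had a cysteine in 12.2% of clonotypes in epidermal B, 9.26% in C, 15.2% in the CD103hi sort and 9.64% in the lymph node. Any cysteine after the first was counted, and those encoded by a germline V end were not separated from those made at the joint. The germline end of TRBV17 encodes only the first cysteine, so the other segments are not a like baseline for it. By all clonotypes, the TRBV17 share was 0.506% in the lymph node and 14.3% in the CD103hi sort, each a single library. Among clones of at least 10 reads without 1-base neighbours it was 3 of 14 there, against 12.5% of other segments. By reads TRBV17 stood at 27.2% against 18.3% in the CD103hi sort and 68.1% against 0.132% in epidermal C. It was lower by reads in every other library, such as epidermal B at 4.78% against 11.9%. The leading clones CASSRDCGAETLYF of epidermal C and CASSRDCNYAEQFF of the CD103hi sort are among the clonotypes with a cysteine, with 68.1 and 20.7% of the TRBV17 reads of their libraries.

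Across the 9 libraries, the clonotype share of TRBV15 ran most like that of TRBV16 (Spearman rho 0.82, among 22 other segments found in at least 5 libraries) and next like that of TRBV13-2 (0.72). For TRBV16 the next after TRBV15 was TRBV3 (0.42). TRBV17 had no close partner, with TRBV21 at 0.32 and TRBV12-2 at 0.28, and −0.05 with TRBV15 and 0.15 with TRBV16. Shares within a library sum to the whole and the libraries differ in clonotype number, so these values are descriptions.

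No nucleotide clonotype of the 3 segments was found in more than 1 of the 3 epidermal libraries, among 135 distinct ones. By amino acid sequence 1 of 130 was, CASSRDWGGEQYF with TRBV16, at 1 read in epidermal A and 5 in B. Across all 8 skin libraries, 34 of 349 nucleotide clonotypes were shared: 3 of 105 for TRBV15, 20 of 165 for TRBV16 and 11 of 79 for TRBV17. Of these, 31 were shared only within a library set, and in 29 of the 31 the smaller count was at most 5 reads. Whether these few reads were cells of the second sort or carry-over between libraries of a set was not tested.

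The 3 nucleotide clonotypes found in different sets were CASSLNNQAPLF (TRBV16), with 63 reads in the CD103hi sort and 294 in WT dermis, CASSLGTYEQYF (TRBV16), with 14 in epidermal A and 19 in WT dermis, and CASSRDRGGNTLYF (TRBV17), with 586 in epidermal C and 2 in the CD103hi sort. Different nucleotide versions of 1 amino acid sequence added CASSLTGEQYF, with 5 reads in dermal A and 918 in the CD103+ sort, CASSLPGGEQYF, with 4 in the CD103+ sort and 509 in WT dermis, both TRBV16, and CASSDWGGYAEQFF (TRBV17), with 6 in the CD103hi sort and 1 in WT dermis. Within a set, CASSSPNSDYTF (TRBV16) stood out with 583 reads in the CD103+ sort and 56 in the CD103hi sort.

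The large epidermal clones were each found in 1 epidermal pool. Of the 19 with at least 1% of reads, 9 were met in a dermal library, none there above 4 reads: 0 of 6 for TRBV15, 5 of 8 for TRBV16 and 4 of 5 for TRBV17. In the lymph node library 5 of the 19 occurred by amino acid sequence, all of them TRBV16, and 1 by nucleotide sequence. Over all member clonotypes, 10 of 51 amino acid sequences of epidermal A, 5 of 63 of B and 2 of 17 of C were in the lymph node library. So were 5 of 18 of dermal A, 1 of 5 of dermal B, 5 of 78 of the CD103+ sort, 3 of 59 of the CD103hi sort and 4 of 73 of WT dermis. Epidermal A and dermal A belong to the library set of the lymph node.

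Some listed clonotypes were small variants of large ones. In epidermal A, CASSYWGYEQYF (814 reads) stood beside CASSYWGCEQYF (156 reads; A23G, counted from 1 at the first base of the CDR3), and in epidermal C, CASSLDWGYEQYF (1693 reads) beside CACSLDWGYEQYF (156 reads; A7T). The members had 5, 7 and 2 such 1-base neighbours in epidermal A, B and C, at most 1 in 5 of the larger clone's reads. A further 10, 11 and 1 member clonotypes there matched their named J segment over fewer than 8 bases, with 29, 11 and 1 reads in all, and their origin was not tested. Both kinds are counted in the clonotype shares above.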

How the data were processed

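T cell receptor β transcripts of sorted cells were amplified by 5′ RACE and PCR and sequenced on an Illumina MiSeq, per the labels' protocols, which name no molecular identifiers. The deposited tables give 1 clonotype per line with a read count, per the file headers. The deposited fraction was each clonotype's count over the total of its library, for all 29481 clonotypes. The aligner, caller and segment reference are not given in the sources used here. V, D and J calls and junction positions were used as deposited.

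Libraries were grouped by their labels, at 31823 to 189162 reads. Shares carry exact (Clopper-Pearson) 95% intervals. PCR copies of 1 molecule cannot be told apart without such identifiers, so reads are not independent molecules and these intervals, and the limit of 3 counts for a share of 0, cover counting error only. Junction values are means over distinct nucleotide clonotypes, with inserted bases being those covered by no deposited segment position. The 9 comparisons within libraries flipped signs over libraries with at least 5 clonotypes of the segment, and the 3 comparisons of epidermal with bulk dermal libraries permuted library labels. All were exact and two-sided, with Benjamini-Hochberg adjustment within each family and a threshold of 0.05. The sign-flip test was checked on simulated data, and the label permutation on a fixed example with a known answer. Germline ends and the germline reading came from GENCODE M21 (GRCm38), using clonotypes with complete CDR3 and at least 8 matching J bases. Older segment names came from the RefSeq table of the same assembly.

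Named clonotypes were the largest of each segment per skin library, all with at least 1% of a library's reads, and all found in 2 or more library sets. Named for likeness were the 2 TRBV segments with the highest Spearman correlation of clonotype share. Others are named where the text says so or as 1-base neighbours, a clonotype 1 base from one with at least 5 times its reads. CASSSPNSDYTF meets the rule by its share of reads. The segments, lists and tests were chosen with earlier results of these data known. The γ chain library was not used. Alternatives are given in the closing section. Python 3.11.15, numpy 2.4.6, pandas 2.3.3 and scipy 1.17.1 were used.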

Additional observations from a re-analysis of the deposited data

How the results depend on the processing

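The shares of reads and clonotypes in the epidermis rest on 3 pools, and junction means of bulk dermal B rest on 5 member clonotypes, so depth in clonotypes limits every comparison. The alternatives were a minimum of 2 or 10 reads, no trace clonotypes (those under 1% of the clonotype's own share elsewhere in the set), complete CDR3 only, amino acid clonotypes, read weighting, at least 10 clonotypes per library, CD103 sorts added to dermis, and each library left out. Leaving out 1-base neighbours and germline junctions were chosen after seeing the data. None brought an adjusted p under 0.05. The group comparisons were not run with a minimum of 2 or 10 reads or without trace clonotypes, since bulk dermal B then held under 5 member clonotypes. Germline junctions moved the epidermal minus dermal share without insertion from 4.14 to 20.3 percentage points, and read weighting moved it to 9.21, the inserted bases to −0.14 and the CDR3 length from −0.54 to −2.05 residues.

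Nothing in the labels pairs libraries by letter. With a replicate block on the letters, epidermal minus dermal was −0.47 residues, −0.61 inserted bases and 0.425 percentage points without insertion, with exact p = 0.5, 1.0 and 1.0, and the smallest possible p was 0.5. With a block on library sets they were −0.45, −0.79 and 7.73.

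For inserted bases, epidermal minus dermal ranged from −2.17 to 0.294 as single libraries were left out, positive without dermal A. CDR3 length of TRBV16 minus other segments reversed to 0.0487 with read weighting, as did its inserted bases, to 0.0318. CDR3 length of TRBV17 reversed to 0.0158 and 0.127 at 2 and 10 reads and to 0.0286 with read weighting, and ranged from −0.30 to 0.0469 over single libraries left out. TRBV15 inserted bases reversed to −0.44 and −0.28 at 2 and 10 reads, −0.60 with germline junctions and −0.22 at 10 clonotypes per library, and ranged from −0.38 (without dermal A) to 0.756. TRBV17 inserted bases reversed to −0.0892 without trace clonotypes, −0.0130 with complete CDR3, −0.0154 with amino acid clonotypes and −0.34 with germline junctions, and ranged from −0.0638 to 0.166. The TRBV15 difference in TRBJ1 share reversed to −0.0321 at 10 reads and −3.08 at 10 clonotypes per library. The cause of these reversals was not tested. The TRBV17 difference in TRBJ1 share stayed between −25.8 and −20.8 percentage points under every alternative run, and the TRBV16 one between 2.86 and 15.5. The epidermal clonotype share of TRBV17 rose from 3.34 to 6.05% at 10 reads.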
